A study of Saccharomyces cerevisiae with 2 samples.

Results

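The genes described here act in the yeast respiratory chain (succinate dehydrogenase, the cytochrome bc1 complex and cytochrome c oxidase), the mitochondrial ATP synthase and the ubiquinone pathway. They were chosen by name, as platform gene symbols made of ATP, COX, QCR, SDH or COQ and a number, with A or B allowed at the end. The rule itself uses no measured value, but it was set with earlier results of these data known. The rule found 58 of 5325 gene symbols. Of these, 56 had 1 strain that could be followed by its tags, and 2 (ATP4 and ATP11) had several probes in each tag set and are given separately. All 56 passed into the fit, since no filter on low values was used.

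Each strain is a diploid of Saccharomyces cerevisiae that lacks 1 copy of 1 gene and carries a pair of short DNA tags that identify it. A pool of 5896 such heterozygous, haploid-convertible strains was transformed with a tub1D::URA3 cassette, which replaces 1 copy of the alpha-tubulin gene TUB1, or, for the control pool, with a ura3D::URA3 cassette, and grown for 2 days at 30 °C without uracil. Both pools therefore carry the same single-copy deletions and the same selectable marker, and the question is which of these deletions alters growth when TUB1 is also present in a single copy. Tags amplified from genomic DNA of the tub1 pool (Cy3) and the control pool (Cy5) were hybridised together on 2 arrays, experiments 1 and 2, which form 1 group. The labels do not say whether the experiments were separate transformations. A p-value from 1 value per strain and array thus rests only on scatter between these 2 arrays. Limma combines the scatter of the strain with that over all strains, and this scatter may be technical.

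All values are log2 ratios per strain, in the sign of the deposited table, from which the median of each tag set on each array was subtracted, and means are given as ± SD over n = 2 arrays. The direction is not stated. Judged from the dyes, with red over green as scanner software usually reports it, a positive value would stand for a strain scarcer in the tub1 pool than in the control pool and a negative value for one more abundant; this direction is likely, not certain. The TUB1 strain had no value to check this. The strain lacking 1 copy of TUB3, the minor alpha-tubulin gene, had 4.22 ± 0.32, which shows the scale of a strong signal on these arrays.

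Mitochondrial respiration passes electrons from succinate dehydrogenase (SDH genes) and other dehydrogenases to ubiquinone (made by COQ proteins), then through the cytochrome bc1 complex (QCR genes) and cytochrome c to cytochrome c oxidase (COX genes). The proton gradient built on the way drives ATP synthase (ATP genes), a rotary enzyme with a catalytic head, a central stalk, a stator and a membrane ring. Budding yeast can grow by fermentation on glucose without these enzymes, and needs them on non-fermentable carbon sources. The gene table holds 70 names that fit the rule; 12 of them, 5 of which lie in the mitochondrial genome, were not analysed here.

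Ratios of the respiratory strains lay close to 0. Of 56 strains, 40 had a mean within 0.5 of 0, where 63% of all 5219 strains did so. The median of the 56 was -0.03, with -0.10 on array 1 and -0.02 on array 2, against -0.09, -0.09 and -0.03 for all strains. Their means ran from -1.49 for COX18 to 0.63 for SDH5 and those of all strains from -3.80 to 4.22. The median distance from 0 was 0.357 in the respiratory strains and 0.359 over all strains.

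No respiratory strain passed the test. With limma, Benjamini-Hochberg adjusted over all 5219 strains, 0 had an adjusted p under 0.05 in either direction (background 0% in each direction). The smallest adjusted p was 0.229, which was also the smallest over all strains and the value of TUB3. Not passing therefore does not show that a strain was unchanged. Without adjustment, 4 positive strains had p under 0.05 in limma (ATP16, ATP7, COX23 and QCR2; background 9.12%) and 6 negative strains (ATP14, COX18, COQ11, COQ6, SDH1 and SDH2; background 11.7%). These make 7.14% and 10.7% of the 56, so neither share stood above the background. No strain (0) reached a 2-fold ratio on each of the arrays on the positive side (background 0.728%) and ATP14 alone did so on the negative side (background 3.74%). Both arrays had 1 sign in 42 strains: 20 were positive (background 32.7%) and 22 negative (background 41.7%).

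A second limma fit took the tag values one by one, 4 for each strain, and treated the array as a random block. Its p-values also draw on the scatter between the tags of a strain. These tags share the same 2 hybridisations and are not added replicates. It called ATP16 (adjusted p 0.0356), ATP7 (0.0387), COX23 (0.0432) and QCR2 (0.0496) on the positive side, where 6.71% of all strains were called. On the negative side it called COX12 (adjusted p 0.0470), where the background was 3.18%. The 4 positive calls are 7.14% of the strains and the negative call is 1.79%.

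**Figure D1:**
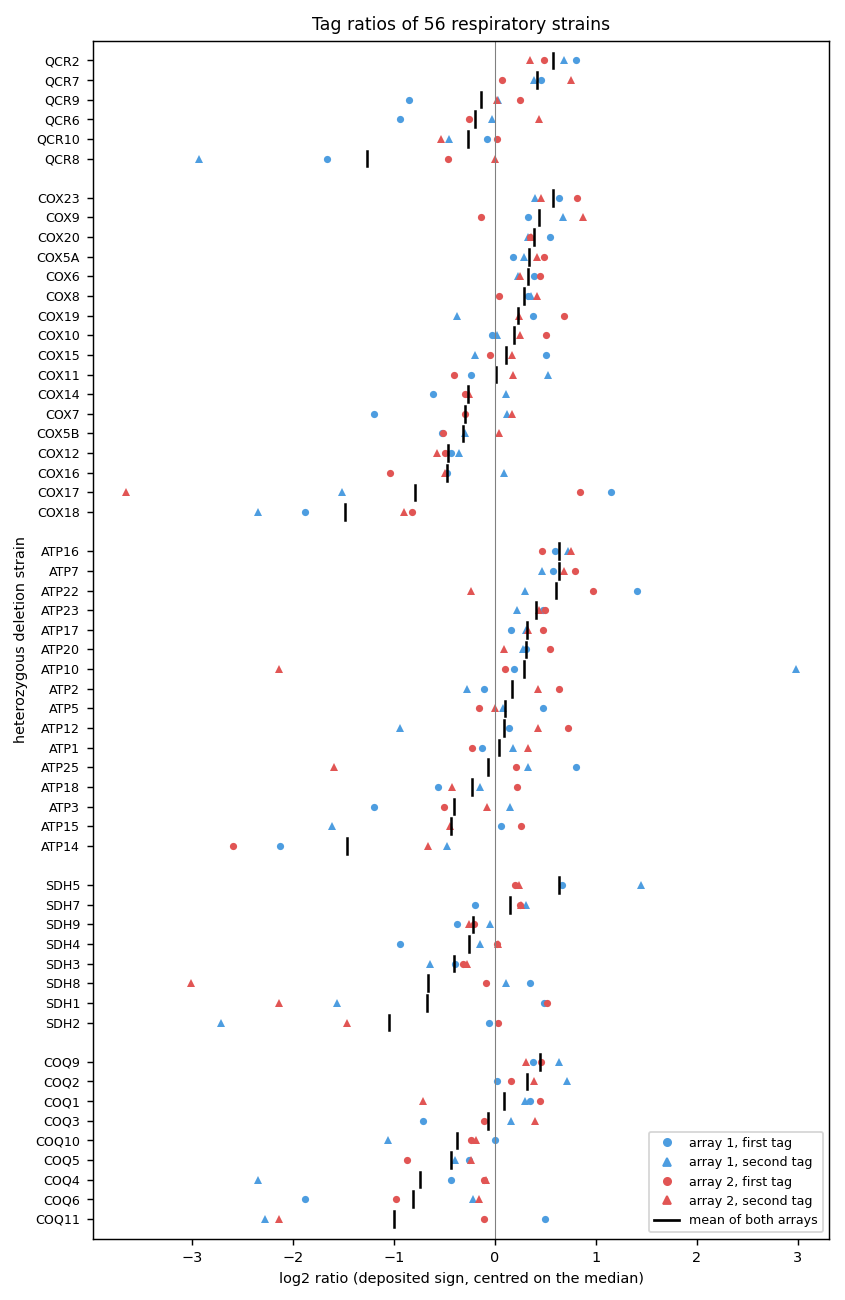
Log2 ratio (x axis) of each of the 56 strains (y axis), grouped by family and ordered by mean. Blue marks array 1 and red array 2, circles the first tag and triangles the second tag, and black bars the mean of both arrays. Most strains lie near 0. COX17, SDH1, SDH2, ATP10, ATP14 and COQ11 have tags at least 1.5 apart on both arrays, and SDH8 has them far apart on array 2.

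The 5 families had their medians on different sides of 0. The ATP strains (median 0.13, n = 16) and the COX strains (0.11, n = 17) were centred above 0, and the QCR strains (-0.17, n = 6), SDH strains (-0.33, n = 8) and COQ strains (-0.37, n = 9) below it. On array 1 alone the COX median was 0.00. The QCR median was positive on array 2 alone (0.11) and with the second tag only (0.11). With the first tag only, the SDH median was 0.00 and the COQ median -0.12, against -0.31 and -0.21 with the second tag only. Members of a family are different strains and not replicates, and the families were compared without a test.

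**Figure D2:**
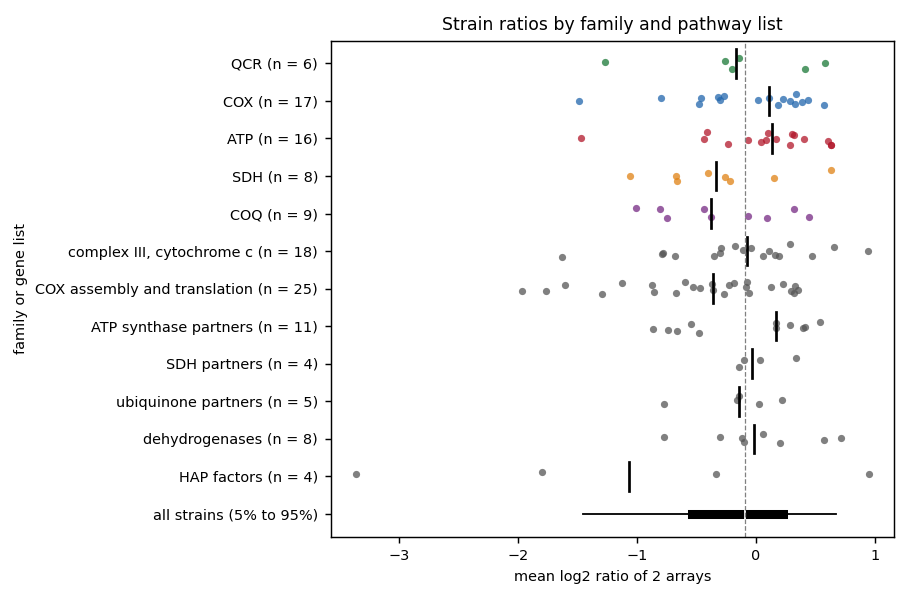
Mean log2 ratio over 2 arrays (x axis) of each strain, by family in colour and by list of other pathway genes in grey, with n strains each (y axis). Black bars are medians, the dashed line is the median of all strains (-0.09), and the bottom row shows all 5219 strains as the 5% to 95% range (thin), the quartiles (thick) and the median; the families overlap throughout, with the ATP and COX medians right of the line and the SDH and COQ medians left of it.

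The cytochrome bc1 complex was represented by 6 subunit genes. QCR2, which encodes a core protein of the complex, had 0.80 and 0.69 for the first and second tag on array 1, and 0.49 and 0.34 on array 2. All 4 values were positive and the mean was 0.58 ± 0.23 (limma adjusted p 0.239). QCR7, a small subunit needed for assembly, had 0.45 and 0.38 on array 1 and 0.07 and 0.75 on array 2, with a mean of 0.41 ± 0.01.

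The other QCR strains were at or below 0. QCR9, another small subunit gene, had -0.85 and 0.03 on array 1 and 0.25 and 0.01 on array 2 (mean -0.14 ± 0.38). QCR6, the acidic hinge protein gene, had -0.94 and -0.03 on array 1 and -0.26 and 0.43 on array 2 (mean -0.20 ± 0.40). In both strains the first tag on array 1 was the low value. QCR10 had -0.08 and -0.46 on array 1 and 0.01 and -0.53 on array 2 (mean -0.26 ± 0.01), so its arrays agreed closely while its tags differed. QCR8, a small subunit gene, had -1.67 and -2.94 on array 1 but -0.47 and 0.00 on array 2. Its mean of -1.27 ± 1.46 rested on array 1, and limma gave an adjusted p of 0.334.

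Among the structural subunits of cytochrome c oxidase, 4 of 7 strains were positive on both arrays (background 32.7%) and 3 negative (background 41.7%). COX9 had 0.32 and 0.68 on array 1 and -0.14 and 0.88 on array 2, with a mean of 0.43 ± 0.09. COX6 averaged 0.33 ± 0.03 and COX8 0.28 ± 0.08, with all 4 tag values of each positive. COX12, which encodes a small subunit facing the intermembrane space, had -0.44 and -0.35 on array 1 and -0.49 and -0.58 on array 2. Its 4 values lay within a narrow band below 0, and its mean was -0.46 ± 0.10 (limma adjusted p 0.241). COX7 averaged -0.30 ± 0.34, with its first tag on array 1 at -1.20 and its second tags at 0.12 and 0.17.

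COX5A and COX5B encode alternative forms of the same subunit, used mainly with and without oxygen. COX5A had 0.18 and 0.28 on array 1 and 0.49 and 0.41 on array 2, a mean of 0.34 ± 0.15. COX5B had -0.52 and -0.29 on array 1 and -0.51 and 0.04 on array 2, a mean of -0.32 ± 0.12. The tag values of the isoform strains did not overlap, but neither differed from 0 by limma (adjusted p 0.303 for COX5A and 0.305 for COX5B), and the difference between them was not tested.

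Copper delivery and heme A synthesis strains were spread around 0. COX23, which encodes a small protein of copper delivery in the intermembrane space, had 0.64 and 0.40 on array 1 and 0.81 and 0.46 on array 2, and was the highest COX strain at 0.57 ± 0.08 (limma adjusted p 0.230). COX17 encodes the copper chaperone that passes copper on to cytochrome oxidase, and it had 6 spots per tag. Its first tag gave 1.15 and 0.84 on arrays 1 and 2 and its second tag -1.52 and -3.66. The tags thus pointed in opposite directions on both arrays, although the 6 spots of each tag scattered with an SD between 0.0661 and 0.375. Its mean of -0.80 ± 0.86 stands between tags that disagree.

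COX19, a relative of COX17, averaged 0.23 ± 0.33, and COX11, which inserts copper into the catalytic subunit, 0.01 ± 0.18. The heme A genes COX10 and COX15 averaged 0.18 ± 0.27 and 0.11 ± 0.07. None of these strains had a mean far from 0.

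Strains for other assembly proteins of the oxidase held the lowest value of all 56. COX18 encodes a membrane protein that helps to export the tail of the mitochondrially made subunit Cox2. Its tags gave -1.88 and -2.35 on array 1 and -0.82 and -0.90 on array 2, so both tags agreed on each array and array 1 was lower. The mean was -1.49 ± 0.89 (limma adjusted p 0.238), a linear ratio of 0.357, and 233rd from the lowest of all strains. COX16 had -0.48 and 0.09 on array 1 and -1.05 and -0.49 on array 2 (mean -0.48 ± 0.41). COX14, which acts in the synthesis and assembly of the catalytic subunit, averaged -0.27 ± 0.02, and COX20, a chaperone of Cox2, 0.39 ± 0.06. The COX20 tags gave 0.54 and 0.32 on array 1 and 0.34 and 0.35 on array 2. COX20 and COX18 act on the same subunit and stood on opposite sides of 0.

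In ATP synthase, the strains of the catalytic head and central stalk went both ways. ATP16, the delta subunit of the central stalk, had 0.60 and 0.72 on array 1 and 0.47 and 0.75 on array 2. Its mean of 0.63 ± 0.04 (limma adjusted p 0.229) was the highest of the ATP strains and 303rd from the highest of all strains. Of its neighbouring genes, named after their values were seen, MCD1, a cohesin subunit, had 1.47 ± 0.04 and MED2, a Mediator subunit, 0.23 ± 0.29. ATP15, the epsilon subunit of the same stalk, had 0.06 and -1.62 on array 1 and 0.26 and -0.45 on array 2, a mean of -0.44 ± 0.48 that rested on the second tag.

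ATP3, the gamma subunit and rotor shaft, had 6 spots per tag. Its first tag gave -1.20 and -0.51 on arrays 1 and 2, and its second tag 0.15 and -0.08. The mean was -0.41 ± 0.16, carried by the first tag. ATP1 and ATP2, the alpha and beta subunits that form the catalytic head, averaged 0.04 ± 0.02 and 0.17 ± 0.51, and the ATP2 values were negative on array 1 (-0.19) and positive on array 2 (0.53).

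Strains of the stator and membrane sector included the lowest of the ATP family, ATP14, and its second highest, ATP7. ATP7, subunit d of the stator, had 0.57 and 0.47 on array 1 and 0.79 and 0.69 on array 2 (mean 0.63 ± 0.15, limma adjusted p 0.229). ATP14, subunit h of the stator, had -2.13 and -0.48 on array 1 and -2.60 and -0.67 on array 2. All 4 values were negative and the first tag was lower on both arrays. Its mean was -1.47 ± 0.23, a linear ratio of 0.361, with an unadjusted limma p of 0.0051 and an adjusted p of 0.229. ATP5, the stator subunit that caps the head, stood at 0.10 ± 0.25, so the 3 measured stator strains were positive, near 0 and negative. Of the membrane subunits, ATP17 averaged 0.32 ± 0.12 and ATP20, which acts in dimer formation, 0.30 ± 0.02. All 4 tag values of each were positive.

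The assembly and expression genes of ATP synthase had a median of 0.28 (n = 5), and ATP10, ATP12 and ATP25 had opposite signs on the arrays. ATP22, needed for translation of the mitochondrial ATP6 message, had 1.41 and 0.30 on array 1 and 0.97 and -0.24 on array 2 (mean 0.61 ± 0.35), with the first tag higher on both arrays. ATP23, a protease that matures the Atp6 protein, averaged 0.41 ± 0.08 with all 4 values positive. ATP10, which works with ATP23 on Atp6, had 0.19 and 2.98 on array 1 but 0.10 and -2.14 on array 2. Its second tag thus turned from far above to far below 0, and the mean of 0.28 ± 1.84 carries no direction. ATP25, which acts on the ATP9 message, had 0.80 and 0.32 on array 1 and 0.21 and -1.60 on array 2 (mean -0.07 ± 0.89). ATP12, a chaperone of the alpha subunit, had -0.40 on array 1 and 0.57 on array 2.

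The 2 genes left out of the means are described by probe. ATP4, subunit b of the stator, had -0.18 and 0.41 on arrays 1 and 2 for one probe of the first tag set and 0.72 and 0.13 for the other. In the second set its probes gave 1.27 and 0.69, and -2.28 and 0.07. ATP11, a chaperone of the beta subunit, had -0.64 and -0.85, and -0.37 and -0.85, in the first set, and 0.43 and -0.14, and -0.22 and -0.47, in the second. Negative values prevailed for ATP11, and the probes of ATP4 did not agree.

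All 4 strains of the succinate dehydrogenase subunits had negative means, from -1.06 to -0.26, where the median of all strains was also negative (-0.09). Of these subunit strains, 3 were negative on both arrays (background 41.7%). SDH2, the iron-sulfur subunit, had -0.06 and -2.72 on array 1 and 0.03 and -1.47 on array 2 (mean -1.06 ± 0.47, limma adjusted p 0.229). SDH1, the flavoprotein subunit, had 0.49 and -1.57 on array 1 and 0.52 and -2.14 on array 2 (mean -0.68 ± 0.19, adjusted p 0.229). In both strains the second tag alone was low, on both arrays, while the first tag was near or above 0. The anchor subunit strains were closer to 0: SDH3 had -0.39 and -0.64 on array 1 and -0.31 and -0.28 on array 2 (mean -0.41 ± 0.16), and SDH4 averaged -0.26 ± 0.40.

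SDH9, whose product is a close relative of Sdh1, had -0.37 and -0.05 on array 1 and -0.21 and -0.26 on array 2 (mean -0.22 ± 0.02). SDH5, which helps to attach the flavin to Sdh1, had 0.67 and 1.44 on array 1 and 0.19 and 0.23 on array 2. All 4 values were positive, array 1 was the higher, and the mean of 0.63 ± 0.59 (limma adjusted p 0.313) was the highest of the 56 strains. SDH8, another assembly factor of Sdh1, averaged -0.66 ± 1.26. That mean rested on 1 value, -3.02 for the second tag on array 2, while the other tags gave 0.35, 0.11 and -0.09. SDH7, which acts on the iron-sulfur subunit, had -0.20 and 0.31 on array 1 and 0.25 and 0.26 on array 2 (mean 0.15 ± 0.14).

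Of the 9 ubiquinone strains, 5 were negative (background 41.7%) and 2 positive (background 32.7%) on both arrays. COQ6, a monooxygenase that hydroxylates the ring, had -1.88 and -0.22 on array 1 and -0.99 and -0.16 on array 2 (mean -0.81 ± 0.34, limma adjusted p 0.232), and its first tag was the lower on both arrays. COQ5, a C-methyltransferase, had -0.26 and -0.39 on array 1 and -0.87 and -0.24 on array 2 (mean -0.44 ± 0.16). The other enzymes stood higher. COQ2, which joins the polyprenyl tail to the ring, had 0.02 and 0.71 on array 1 and 0.15 and 0.39 on array 2 (mean 0.32 ± 0.07). COQ1, which makes the tail, had 0.35 and 0.30 on array 1 and 0.44 and -0.72 on array 2 (mean 0.09 ± 0.32). COQ3, an O-methyltransferase, averaged -0.07 ± 0.30.

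Strains for the other ubiquinone proteins held the lowest and the highest values of that family. COQ11, a protein of the biosynthetic complex, had 0.50 and -2.28 on array 1 and -0.11 and -2.14 on array 2, so the mean of -1.01 ± 0.17 (limma adjusted p 0.229) came from the second tag. COQ4, which is needed for the stability of the biosynthetic complex, averaged -0.75 ± 0.92, with the second tag on array 1 at -2.35 and the other values at -0.44, -0.11 and -0.09. COQ10, a ubiquinone-binding protein, averaged -0.37 ± 0.22. COQ9, a lipid-binding partner of the complex, had 0.37 and 0.64 on array 1 and 0.46 and 0.31 on array 2 (mean 0.44 ± 0.09).

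**Figure D3:**
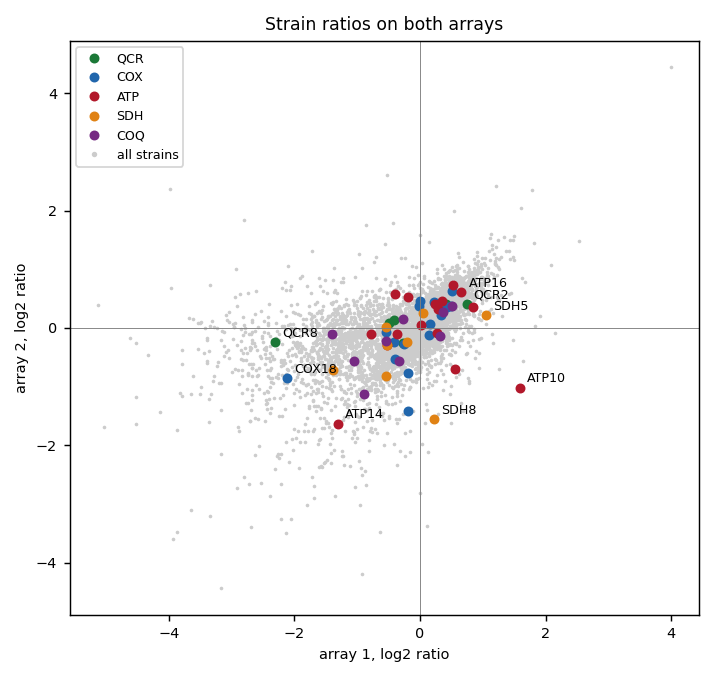
Log2 ratio on array 1 (x axis) against array 2 (y axis) for the 56 strains, coloured by family, over all 5219 strains in grey. Most coloured points lie within the dense centre; ATP14 is low on both arrays, COX18 and QCR8 are lower on array 1, and ATP10 and SDH8 differ in sign between arrays.

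Agreement between arrays was like that of the whole pool. The sign was shared by 75% of the 56 strains, against 74.4% of all strains. The median SD between arrays was 0.186 in the respiratory strains and 0.197 over all strains. Across the 56 strains, which are not independent replicates and share both arrays, tags and dye orientation, Pearson's r was 0.410 and Spearman's rho 0.537, against 0.526 and 0.606 over all strains. Arrays at least 1 apart were seen in 7 of 56 strains (background 15.8%): ATP10, ATP25, COQ4, COX17, COX18, QCR8 and SDH8.

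The tags of a strain measure the same deletion, and where they part the mean describes neither. Tags at least 1.5 apart on 1 or both arrays were found in 11 of 56 strains (background 26.3%), and on both arrays in 6 (ATP10, ATP14, COQ11, COX17, SDH1 and SDH2; background 4.81%). In COQ11, COX17, SDH1 and SDH2 the second tag was the lower on both arrays, in ATP14 the first tag was, and in ATP10 the order turned between arrays. Of the 6 negative strains at an unadjusted limma p under 0.05, 4 had tags that far apart on both arrays and COQ6 had them on array 1, and none of the 4 positive strains had them on either. The matching shares among all strains at that p were not counted, so this contrast cannot be called particular to the respiratory strains. All 4 tag values were positive in 15 strains (background 20.3%) and negative in 8 (background 20%). With 1 sign throughout and a mean at least 0.5 from 0 there were 5 positive strains (ATP16, ATP7, COX23, QCR2 and SDH5; background 9.24%) and 4 negative strains (ATP14, COQ4, COQ6 and COX18; background 12.6%).

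**Figure D4:**
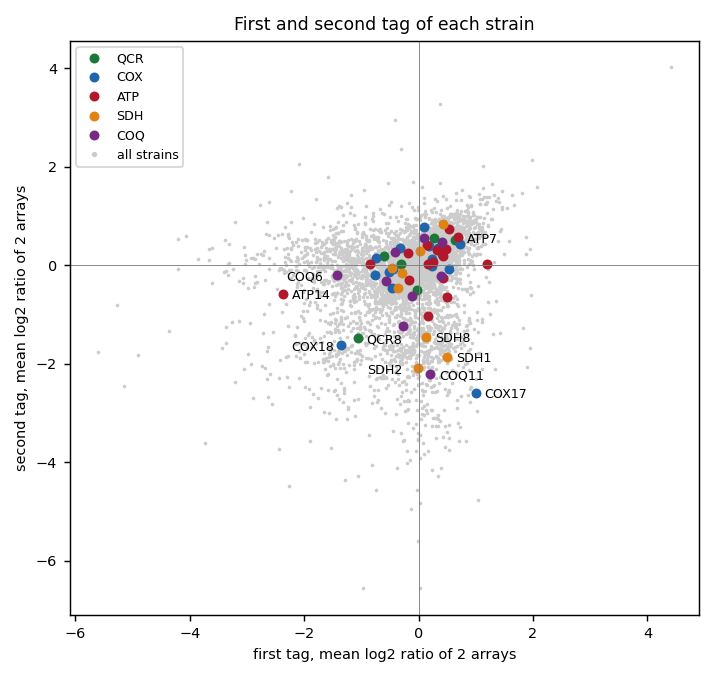
Mean log2 ratio over both arrays of the first tag (x axis) and the second tag (y axis) for the 56 strains, coloured by family, over all strains in grey. COX17, SDH1, SDH2, SDH8 and COQ11 lie at the bottom with a low second tag and a first tag near or above 0, while both tags are low in COX18 and QCR8.

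Other genes of the same pathway, taken as 7 lists, are set beside the 5 families. The lists were drawn up with earlier results of these data known. Genes of the bc1 complex, cytochrome c and their assembly outside the QCR names had a median of -0.08 (18 strains). On both arrays, 6 were positive (background 32.7%) and 6 negative (background 41.7%). CYC1, the main cytochrome c gene, was highest at 0.94 ± 0.48, with its second tag on array 1 at -0.02, and CBP3, an assembly factor of the complex, averaged 0.65 ± 0.08. CBS1, a translational activator of the cytochrome b message, averaged -1.63 ± 2.33, with -3.28 on array 1 and 0.02 on array 2. BCS1, which inserts the Rieske protein, averaged -0.79 ± 1.20. The low mean of CBS1 rested on array 1, where both tags were low. That of BCS1 rested on 1 value, -2.94 for the first tag on array 1, while its other tag values were -0.33, -0.01 and 0.13.

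The list of genes for assembly of cytochrome oxidase and translation of its mitochondrial messages had a median of -0.36 over 25 strains, with -0.50 on array 1 and -0.22 on array 2. The median was -0.39 for the second tag and 0.13 for the first tag, although the lowest strains did not all have the same tag low. Of these strains 16 were negative on both arrays (background 41.7%) and 5 positive (background 32.7%), and 3 were at least 2-fold negative on both (background 3.74%). By limma 0 passed after adjustment, in the fit to strain means and in that to single tag values. At an unadjusted limma p under 0.05, 5 were negative (background 11.7%) and 0 positive (background 9.12%). IMP2, a subunit of the inner membrane peptidase that matures Cox2, averaged -1.96 ± 0.09, and PET111, an activator of Cox2 translation, -1.77 ± 0.01. Each rested on 1 tag: IMP2 had 0.47 and 0.00 for the first tag and -4.52 and -3.79 for the second on arrays 1 and 2, and PET111 had a first tag at -3.52 and -3.28 and a second tag at -0.03 and -0.24. Tags at least 1.5 apart on 1 or both arrays were found in 12 of the 25 strains (background 26.3%). PET54 (0.35 ± 0.74) and IMP1 (0.33 ± 0.08), the other catalytic subunit of that peptidase, were highest.

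The partners of ATP synthase had a median of 0.17 over 11 strains. On both arrays, 6 were positive (background 32.7%) and 5 negative (background 41.7%). INH1, the inhibitor of the ATPase, averaged -0.87 ± 0.26 and AEP2, which acts on the ATP9 message, -0.74 ± 0.17. NCA3 was highest at 0.54 ± 0.03, followed by NCA2 at 0.41 ± 0.25. In the limma fit to strain means no partner passed after adjustment, and 1 was positive (background 9.12%) and 4 negative (background 11.7%) at an unadjusted p under 0.05. The limma fit to single tag values called NCA3 positive (adjusted p 0.0394) and INH1 (0.0394) and AEP2 (0.0347) negative, where 6.71% and 3.18% of all strains were called.

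Shorter lists lay near 0 apart from single strains. The succinate dehydrogenase partners had a median of -0.03 (4 strains), from FLX1 at -0.14 ± 0.77 to SHH3 at 0.33 ± 0.02, with TCM62 at -0.10 ± 0.18 and SHH4 at 0.04 ± 0.40 between them. Among the ubiquinone partners (median -0.15, 5 strains), CAT5, also called COQ7, a hydroxylase of the ring, was lowest at -0.77 ± 0.20 with all 4 tag values negative, and PTC7, a phosphatase gene, was highest at 0.22 ± 0.17. The list of dehydrogenases, most of which feed ubiquinone or cytochrome c, had a median of -0.02 (8 strains, with URA1 among the exceptions). NDI1, the internal NADH dehydrogenase that yeast has in place of a multisubunit first complex, was highest at 0.71 ± 0.40, with all 4 tag values positive. CYB2, a lactate dehydrogenase gene, was lowest at -0.77 ± 0.89, with -1.40 on array 1 and -0.15 on array 2. The array 1 value of CYB2 rested on its second tag alone, since its first tag there had 0.20. Its tags were at least 1.5 apart on array 1, so that value describes neither tag. NDI1 and CYB2 lie 36 and 34 genes from TUB1, on opposite sides. The nearest measured strains around CYB2, SPC2 and YML053C, were also lower on array 1 (-1.62 and -1.50) than on array 2 (-1.09 and 0.13). A part of position in these values was not tested.

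The HAP complex is a transcription factor that activates respiratory genes, with HAP4 as its activating subunit. HAP4 had 0.89 and 0.94 on array 1 and 0.92 and 1.04 on array 2, a mean of 0.95 ± 0.05. The DNA-binding subunit strains were negative: HAP2 averaged -1.80 ± 0.98, HAP3 -3.36 ± 2.35 and HAP5 -0.33 ± 0.28. The first tag of HAP3 on array 1, at -6.52, was the smallest ratio that the deposited values hold, which makes that mean uncertain. None of the 4 passed in the limma fit to strain means after adjustment (adjusted p from 0.229 to 0.350). The limma fit to single tag values called HAP4 positive (adjusted p 0.0236), where 6.71% of all strains were called. Over the 75 strains of the 7 lists that fit called 4 positive (5.33%, background 6.71%) and 4 negative (5.33%, background 3.18%). The called strains not given above were CBP3, MZM1, RIP1 and CAT5.

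ATP18, a small membrane subunit gene of ATP synthase, is the third gene from TUB1 in the gene order of chromosome XIII, in a stretch of low ratios. Its tags gave -0.57 and -0.15 on array 1 and 0.22 and -0.43 on array 2, and its mean was -0.23 ± 0.18. The strains on either side were much lower: YML082W averaged -1.96 ± 0.55 and TDA9 -2.63 ± 0.35, and YML083C, next to TUB1, -3.37 ± 0.39. The next gene beyond TDA9, DUS1, had -1.41 ± 0.97. These neighbours were named after their values were seen. ATP18 was nearest to 0 of the 7 strains from YML083C to CPR3, the others having means from -3.37 to -1.16. COQ5 and COX14 lie 26 and 46 genes away on the other side of TUB1 and had means of -0.44 ± 0.16 and -0.27 ± 0.02.

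**Figure D5:**
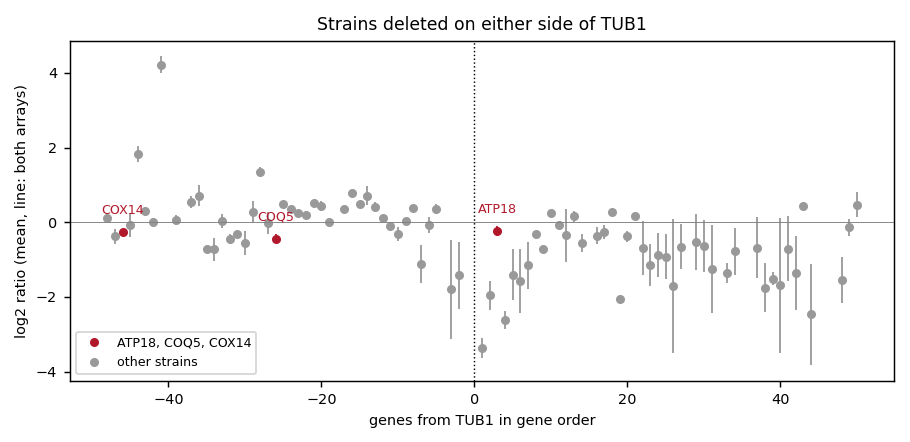
Mean log2 ratio (y axis, points) with the range of both arrays (lines) for strains deleted within 50 genes of TUB1 (dotted line), in gene order (x axis). ATP18, COQ5 and COX14 are red and the other strains grey; ATP18, at position 3, lies at -0.23 between strains at -1.96 and -2.63.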

How the data were processed

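The deposited table holds log2 ratios per spot of 2 two-colour tag arrays. Per the labels, images were taken on a GenePix 4000B scanner and analysed with GenePix 5.1; how background was treated, how arrays were normalized and which pool is the numerator is not given in the sources used here. Turned back to linear ratios, 40008 of 40008 values were whole hundredths, with a tolerance of 0.1 hundredths, and the lowest was 0.01. The 2 values equal to a linear ratio of 1000000 were set to missing. The number of arrays limits the precision, and spot brightness was not used. Probes were named through the platform annotation, and locus tags, chromosomes and gene order came from NCBI's R64 gene table, used for names and neighbours only; all 56 strains matched. Of 5325 symbols, 105 with several probes in a tag set were left out. Spots of a tag (1, or 6 in 781 strains) were averaged. The median over each tag set of an array was subtracted, and the first and second tag were then averaged. The 5219 strains measured on both arrays were tested against 0 with limma 3.58.1 in R 4.3.3 (intercept, eBayes, two-sided, Benjamini-Hochberg, threshold 0.05). The step was also run on simulated ratios with the same spread for every strain. These arrays differ in that, so the simulated run does not show the power of the step here. Lists were described by counts and medians. Tables and plots used Python 3.11.15, pandas 2.3.3 and matplotlib 3.10.9. Tag values are printed for the 3 highest and 3 lowest strains of each family (every strain in a family of 6), those with 1 sign in all 4 tags and a mean at least 0.5 from 0, those with tags at least 1.5 apart, those within 20 genes of TUB1, and COX5A and COX5B. Of pathway lists with 6 or more strains the 2 highest and 2 lowest may be named, and any strain of shorter lists. TUB3 is named for direction. Other names were chosen after their values were seen. The members and lists were chosen with earlier results of these data known. Alternatives changed the centring, scaling, tags, spot average, smallest ratios, arrays and fit.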

Additional observations from a re-analysis of the deposited data

How the results depend on the processing

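No paired analysis was possible because the data hold 1 group of 2 arrays. The calls by limma stayed at 0 except in the fit to single tag values with the array as a random block, which called 4 respiratory strains positive and 1 negative, and 350 and 166 of all strains. Without centring, the medians were -0.11 for all respiratory strains, 0.0257 for COX, 0.0501 for ATP and -0.42 for SDH, and 2 strains were at least 2-fold negative on both arrays, as were 2 after quantile normalization. With the first tag only, the medians were 0.14 for all respiratory strains, 0.18 for COX, 0.29 for ATP, 0.0023 for SDH and -0.12 for COQ. With the second tag only, they were 0.0558 for ATP, -0.21 for COQ, 0.11 for QCR and 0.0250 for all respiratory strains, the last pair having turned positive, and 4 strains were at least 2-fold negative. Leaving out 1 array, the medians ranged from -0.10 to -0.0209 for all respiratory strains, from -0.0013 to 0.0615 for COX, from 0.18 to 0.26 for ATP from -0.33 to -0.14 for COQ and from -0.34 to 0.11 for QCR, with 0 to 2 strains at least 2-fold positive and 5 to 6 at least 2-fold negative on the array kept. The cause of these shifts was not tested. Using the first tag only turned the sign of 8 strains, among them COQ11, COX17, SDH1 and SDH8, whose means lay at least 0.5 from 0. The second tag only turned 9, none of them that far from 0, and leaving out array 1 or array 2 turned 8 and 6, SDH8 among the 6. Without ATP18, the strain near TUB1, the median of the rest was 0.0135. With 2 arrays of the same dye orientation, a dye effect would not cancel.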

Other observations

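Respiratory strains of chromosome XII were placed side by side after their values were seen. The 9 strains there had a median of -0.46, against -0.04 for all 453 strains of that chromosome. That median was -0.19 on array 1 and -0.72 on array 2, and it was positive with the first tag only (0.18) and -0.47 with the second. They included ATP14 (-1.47 ± 0.23), SDH2 (-1.06 ± 0.47), COQ11 (-1.01 ± 0.17) and COX17 (-0.80 ± 0.86), each with tags at least 1.5 apart on both arrays, and also COQ9 at 0.44 ± 0.09. GSP1, the gene next to ATP14, had 1.03 ± 0.08, and GUF1 and GCD7, on either side of COQ11, had -0.01 ± 0.02 and -0.84 ± 0.13. Chromosome IV was also picked after its values were seen. Its 10 respiratory strains had a median of 0.36, against -0.05 for all 691 strains, and ran from -0.75 (COQ4) to 0.63 (ATP16). On chromosomes with 3 respiratory strains, medians ran from -0.81 (VII) to 0.34 (XIV). No chromosome was tested.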
